A study of Mus musculus with 10 samples.

Results

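The genes described here are 10 members of the metalloprotease system at the cell surface: 5 matrix metalloproteases (Mmp2, Mmp3, Mmp9, Mmp13 and Mmp14), 2 sheddases of the ADAM family (Adam10 and Adam17) and 3 tissue inhibitors of metalloproteases (Timp1, Timp2 and Timp3). They were taken by symbol from 60676 rows of a gene count table, of which 51884 carried a symbol. The table covered 10 RNA-seq libraries of 2 mouse tumour lines, the colon carcinoma line MC38 and the melanoma line B16. Sdc1, the syndecan-1 gene, was knocked down in all of them, and all of them had received IFNγ (interferon gamma, 10 ng/ml) over 24 h. The MC38 groups were the knockdown alone, knockdown plus a mutant called c30, and knockdown plus a mutant called ect. The B16 groups were the knockdown alone and knockdown plus wild-type Sdc1. Each of the 5 groups had 2 libraries. Neither mutant is described further in the labels, and unmodified cells, cells without IFNγ and empty-vector cells are not analysed here.

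Matrix metalloproteases (MMPs) are zinc enzymes that cut collagens and other matrix proteins. They are made as inactive proenzymes. Mmp14 encodes MT1-MMP, a membrane-anchored MMP that activates the secreted gelatinase encoded by Mmp2, with TIMP-2 as the bridge between them at low inhibitor levels. ADAM10 and ADAM17 are transmembrane proteases that release the ectodomains of growth factors, cytokine receptors, adhesion molecules and syndecans, and syndecan-1 is also known as a substrate of MT1-MMP. TIMPs bind and block the active enzymes, and TIMP-3 is the family member known to inhibit ADAM17. RNA levels do not show how much of these proteins was active, and activity was not measured here.

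Total counts were between 11349447 and 15041133 per library. Levels below are CPM, counts per 1000000 counts of the library total, and a count of 0 allows up to 0.199 to 0.264 CPM (3 counts, counting error only). Whether the libraries of a group were separate cultures is not stated, so the p-values reflect only their spread, which may be technical. The 2 B16 wild-type libraries differed more from each other than those of any other group, with a chi-square per degree of freedom of 20.01 over genes against 3.79 to 6.27 elsewhere. Melanocyte markers summed to 22297 to 23524 CPM in B16 and to 293 to 420 CPM in MC38, where Gpnmb alone was at 286 to 414 CPM, Mitf at 4.79 to 6.46 CPM and Tyr, Oca2, Slc45a2 and Mlana at 0 to 0.609 CPM. In MC38, c30 replicate 2 held the melanocyte genes Dct at 2.44 CPM and Tyrp1 at 2.70 CPM, against at most 0.617 CPM for either gene in the other MC38 libraries. Pmel was at 2.18 CPM in that library and at 0.290 to 1.41 CPM in the other MC38 libraries. Markers of colon and other epithelium were largely absent from MC38, where 3 or 4 of 12 reached 1 CPM and the defining gene Epcam was at 0.151 to 0.527 CPM. Sdc1 was 24.5 and 29.99 CPM in the MC38 knockdown, 97.0 and 99.5 CPM with c30, and 22.4 and 25.2 CPM in the libraries labelled ect, so that the gene-level count showed no added Sdc1 in those labelled ect (edgeR log2 fold change -0.17, adjusted p = 0.325). In B16, Sdc1 was 40.7 and 43.1 CPM in the knockdown and 71.1 and 56.9 CPM with the wild type, with no overlap, and the difference was not called (log2 fold change 0.64, edgeR adjusted p = 0.269).

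Promoter sequences are shown for the genes whose RNA was nearly absent, Mmp3 and Mmp13, and for 2 genes whose RNA differed between the MC38 groups, Mmp14 and Timp3. They are RefSeq sequences in the GRCm38.p6 build, matched by symbol, whereas the counts were made on GRCm39. The table held promoters for 8 of the 10 genes, and for Mmp2 and Mmp9 none is shown. In the 250 bases before the start, 3 motifs were searched on both strands: the AP-1 motif TGANTCA, the TATA motif TATAAA and the GC box GGGCGG. AP-1 is a transcription factor of the Jun and Fos families long studied at MMP promoters. The last 2 motifs were chosen after the sequences had been seen. Each stretch below is the 150 bases before the start site on the + strand, with matches to these motifs or their reverse complements in capitals.
Mmp3, chr9:7445672-7445821: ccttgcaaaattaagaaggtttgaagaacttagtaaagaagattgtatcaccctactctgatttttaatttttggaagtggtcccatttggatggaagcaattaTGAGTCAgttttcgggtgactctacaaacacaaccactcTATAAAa
Mmp13, chr9:7272364-7272513: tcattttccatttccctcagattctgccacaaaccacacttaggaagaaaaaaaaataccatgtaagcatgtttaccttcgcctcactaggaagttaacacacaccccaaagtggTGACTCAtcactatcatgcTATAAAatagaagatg
Mmp14, chr14:54431448-54431597: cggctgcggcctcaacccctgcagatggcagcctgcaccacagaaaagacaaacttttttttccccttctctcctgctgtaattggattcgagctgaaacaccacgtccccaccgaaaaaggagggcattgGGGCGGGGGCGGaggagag
Timp3, chr10:86300262-86300411: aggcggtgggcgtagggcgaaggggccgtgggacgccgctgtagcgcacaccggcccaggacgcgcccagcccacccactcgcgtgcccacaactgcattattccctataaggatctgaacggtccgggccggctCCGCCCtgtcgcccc

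Of the 8 promoters, those of Mmp3 and Mmp13 held the AP-1 motif, which was in 6.75% of 32851 mouse promoters of the same length. The same 2 held TATAAA, which was in 12.4% of all promoters. The other 6 promoters, Mmp14, Adam10, Adam17, Timp1, Timp2 and Timp3, held the GC box, which was in 32.7%. A match is a description of the letters and was not tested as a binding site.

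Among the 5 MMP members, Mmp2 and Mmp14 made up nearly all the RNA in MC38, and Mmp14 did so in B16. Mmp2 (ENSMUSG00000031740.9), the gelatinase A gene, was at 507 and 542 CPM in the MC38 knockdown, 438 and 445 CPM with c30, and 391 and 393 CPM in the libraries labelled ect. In B16 it was at 3.51 and 3.05 CPM in the knockdown and at 2.77 and 1.60 CPM with wild-type Sdc1. Every MC38 library was therefore above every B16 library, and within MC38 the 3 groups did not overlap, with the knockdown highest and ect lowest.

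Mmp14 (ENSMUSG00000000957.12) had the opposite order between lines. It was at 149 and 168 CPM in the MC38 knockdown, 120 and 127 CPM with c30, and 115 and 117 CPM in ect. In B16 it was at 280 and 288 CPM in the knockdown and at 279 and 244 CPM with wild-type Sdc1. The lowest B16 library was above the highest MC38 library, and in MC38 both knockdown libraries were above the other 4.

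The other 3 MMPs were at or near the limit of detection. Mmp9 (ENSMUSG00000017737.3), the gelatinase B gene, had 1 and 12 counts in the MC38 knockdown, 5 and 24 with c30, 12 and 19 in ect, 2 and 0 in the B16 knockdown and 4 and 1 with wild-type Sdc1. As levels these spanned 0.0726 to 2.09 CPM in MC38 and 0 to 0.317 CPM in B16, and the replicates differed severalfold in the MC38 knockdown and c30 groups. Mmp3 (ENSMUSG00000043613.9), the stromelysin-1 gene, had 2 counts and Mmp13 (ENSMUSG00000050578.11), a collagenase gene, had 4 counts among 126054303 counts in all. No library held more than 1 count of either gene, and neither entered a test.

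Of the 8 genes with enough counts for a test, the sheddase genes had the smallest range over the 10 libraries, 1.10 for Adam10 and 0.66 for Adam17 on the log2 CPM scale. Adam10 (ENSMUSG00000054693.15) was at 131 and 121 CPM in the MC38 knockdown, 131 and 120 CPM with c30 and 122 and 130 CPM in ect, and the 3 groups overlapped. In B16 it was at 234 and 231 CPM in the knockdown and at 227 and 248 CPM with wild-type Sdc1, again with overlap. Adam17 (ENSMUSG00000052593.17), the gene of TACE, the enzyme that releases tumour necrosis factor, was at 95.8 and 94.6 CPM in the MC38 knockdown, 106 and 106 CPM with c30 and 96.6 and 103 CPM in ect. The knockdown libraries were the lowest of the 6 by a small margin. In B16, Adam17 was at 137 and 132 CPM in the knockdown and 140 and 142 CPM with wild-type Sdc1. In the GENCODE M21 annotation, 311 of the 7154 exon bases of Adam17 lie under Iah1 on the opposite strand. The sources used here do not give the strand setting of the counts, so reads of the 2 genes cannot be told apart there.

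The inhibitor genes separated the lines, as did Mmp2, Mmp14, Adam10 and Adam17. Such separation was common: between the knockdown groups of the lines, 84.4% of all genes tested did not overlap. Timp1 (ENSMUSG00000001131.12) stayed between 92.5 and 97.9 CPM in all 6 MC38 libraries, with the 3 groups overlapping, and between 3.59 and 4.55 CPM in the 4 B16 libraries. Timp2 (ENSMUSG00000017466.11) was at 824 and 888 CPM in the MC38 knockdown, 794 and 785 CPM with c30 and 808 and 837 CPM in ect, and at 198 to 225 CPM in B16. Timp3 (ENSMUSG00000020044.14) was at 209 and 223 CPM in the MC38 knockdown, 191 and 178 CPM with c30 and 191 and 190 CPM in ect, and at 13.1 to 14.2 CPM in B16. For all 3 genes the lowest MC38 library was above the highest B16 library, and for Timp3 both MC38 knockdown libraries were above the other 4. Of 8144 exon bases of Timp3, 1733 lie under Syn3 on the opposite strand, so reads there cannot be assigned without the strand. The remaining family member, Timp4, had 0 counts in all MC38 libraries and was at 0.0798 to 0.840 CPM in B16.

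**Figure D1:**
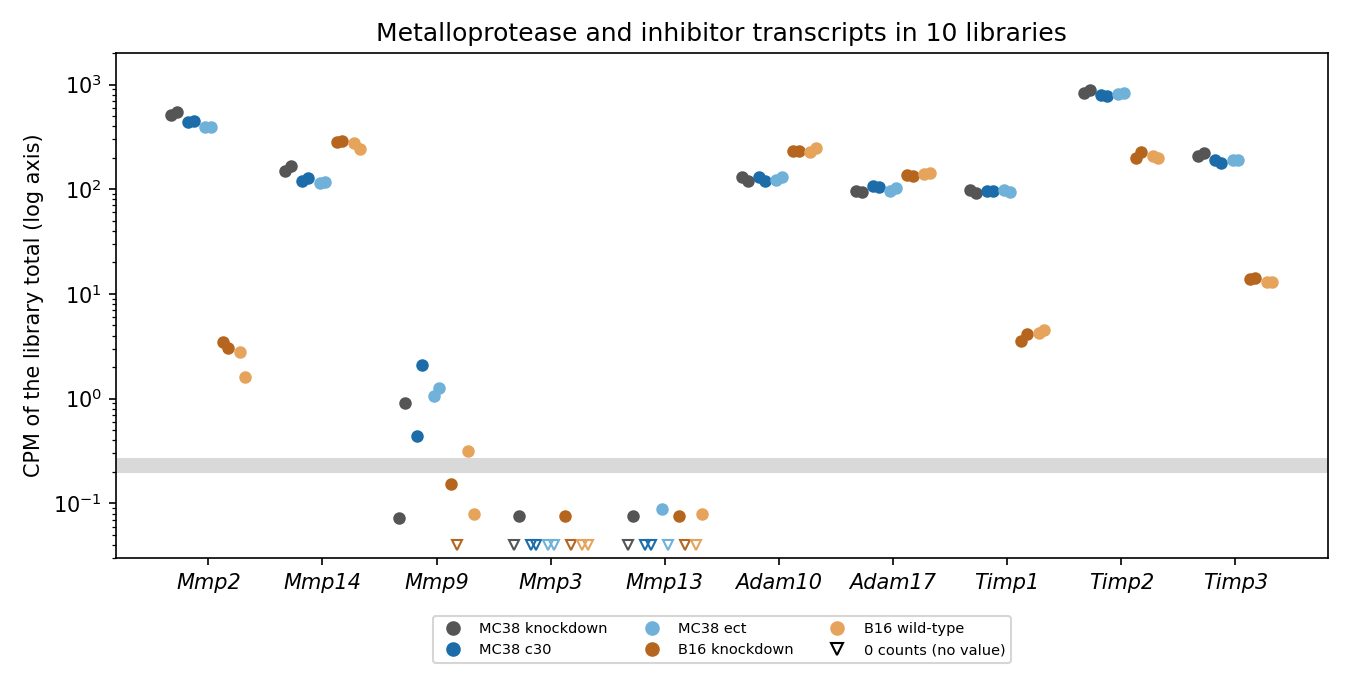
Level of each of the 10 genes in each of the 10 libraries, in CPM of the library total on a log axis; points are libraries coloured by group, open triangles are libraries with 0 counts, and the grey band is the range of the 3-count limit (0.199 to 0.264 CPM). Mmp2 and the 3 Timp genes are higher in MC38, Mmp14, Adam10 and Adam17 are higher in B16, and Mmp3 and Mmp13 stay below the band.

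To compare the genes with each other, CPM was divided by the exon length of each gene in kb, from GENCODE M21, which is not stated to be the annotation the counts were made on. Over the 6 MC38 libraries, the mean level per kb was 211 for Timp2, 134 for Mmp2 and 108 for Timp1. Then came Adam10 at 25.6, Timp3 at 24.2, Mmp14 at 22.2 and Adam17 at 14.0 CPM per kb, with Mmp9 at 0.274. The ranges of Adam10, Timp3 and Mmp14 over libraries overlapped, and all other neighbours in this order were separate, the closest being Mmp2 (lowest 116 CPM per kb) and Timp1 (highest 110 CPM per kb). In B16 the order was Timp2 at 53.3, Adam10 at 47.9, Mmp14 at 45.7 and Adam17 at 19.3 CPM per kb. Timp1 followed at 4.67, Timp3 at 1.67, Mmp2 at 0.810 and Mmp9 at 0.0388 CPM per kb. Adam10 and Mmp14 overlapped in range in B16, and the range of Timp2 (50.8 to 57.8 CPM per kb) began just above the highest value of Adam10 (50.5).

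The make-up of the set differed accordingly. Timp2, Mmp2 and Timp1 held 37.6% to 41.2%, 22.3% to 27.4% and 17.8% to 21.3% of the summed CPM per kb of the 10 genes in the MC38 libraries. In B16, Timp2 held 29.6% to 32.3%, Adam10 26.3% to 29.8% and Mmp14 24.1% to 27.4%, and Mmp2 held at most 0.61%. The ratio of the 3 TIMP genes to the 5 MMP genes, per kb, was 1.94 ± 0.057 (SD, n = 2) in the MC38 knockdown, 2.19 ± 0.059 (SD, n = 2) with c30 and 2.52 ± 0.0072 (SD, n = 2) in ect. It was 1.24 ± 0.091 (SD, n = 2) in the B16 knockdown and 1.33 ± 0.089 (SD, n = 2) with wild-type Sdc1. These ratios are descriptions and were not tested. The ratio of Mmp14 to Timp2 per kb, the membrane activator to its bridging inhibitor, was 0.121 ± 0.0039 (SD, n = 2) in the MC38 knockdown and 0.880 ± 0.062 (SD, n = 2) in the B16 knockdown. The ratio of Adam17 to Timp3 was 0.503 ± 0.028 (SD, n = 2) in the MC38 knockdown and 10.9 ± 0.40 (SD, n = 2) in the B16 knockdown. RNA ratios are not protein ratios.

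**Figure D2:**
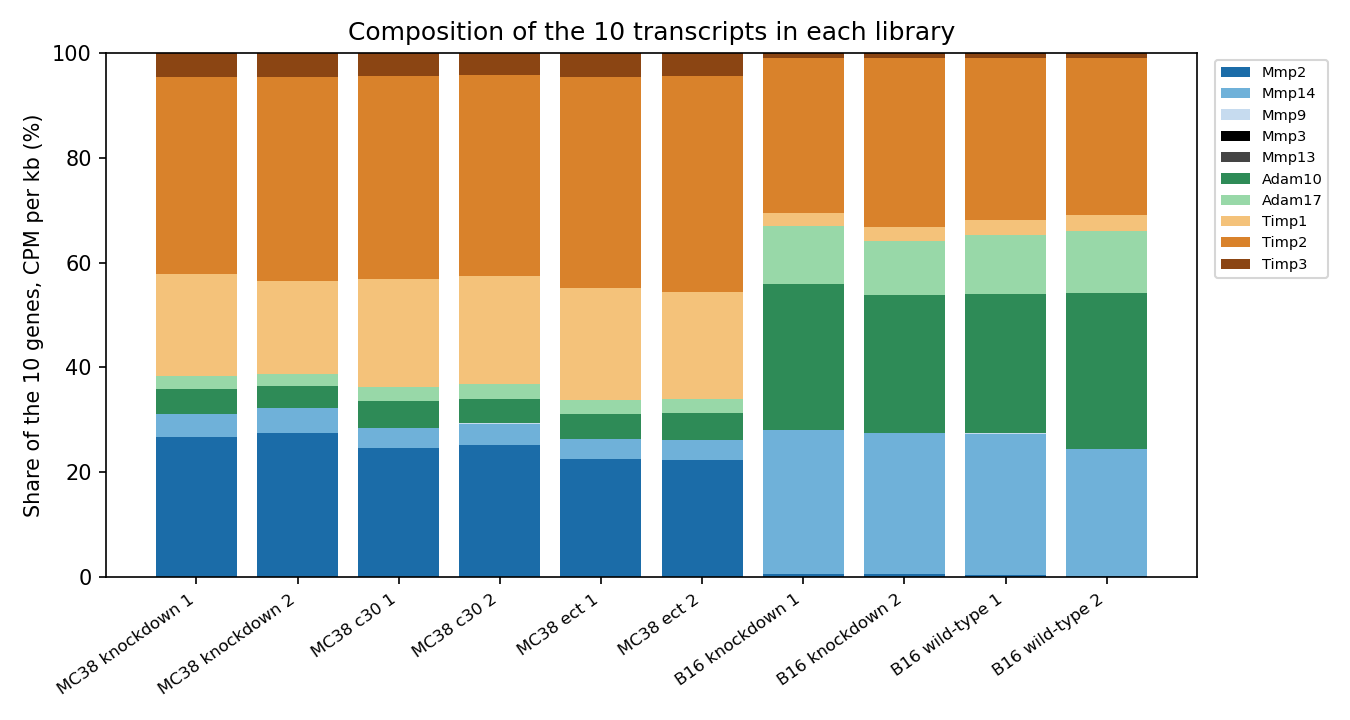
Share of each gene in the summed CPM per kb of the 10 genes, in percent, for each library; each bar is 1 library and sums to 100. Timp2, Mmp2 and Timp1 fill most of each MC38 bar, and Timp2, Adam10 and Mmp14 fill most of each B16 bar.

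The knockdown groups of the 2 lines were compared first, since both lines share that condition. In B16, 4 of the 8 tested genes were lower and 3 were higher at an edgeR adjusted p under 0.05, and in these 7 the groups did not overlap. Among all 16877 genes tested, 68.2% were called, 34.3% as lower and 33.8% as higher, and in 84.4% the groups did not overlap, so calls were common between these lines. Mmp2 was 154-fold lower in B16 (log2 fold change -7.27, SE 0.11, edgeR adjusted p = 1.36e-27). Timp1 was 23.9-fold lower (log2 fold change -4.58, SE 0.12), Timp3 14.9-fold lower (log2 fold change -3.90, SE 0.085) and Timp2 3.94-fold lower (log2 fold change -1.98, SE 0.068). Adam10 was 1.90-fold higher in B16 (log2 fold change 0.92, SE 0.071), Mmp14 1.85-fold higher (log2 fold change 0.88, SE 0.074) and Adam17 1.46-fold higher (log2 fold change 0.54, SE 0.069). The median absolute log2 fold change was 2.19 over the 8 genes and 0.72 over all genes tested. That of the 8 lies midway between Timp2 and Mmp9, and the Mmp9 value is uncertain. Mmp9 was not called (log2 fold change -2.40, SE 1.27, edgeR adjusted p = 0.0992). Mmp9 had 1 and 12 counts in the MC38 knockdown libraries and 2 and 0 in those of B16. Summed fibroblast and mesenchyme markers were also lower in B16, at 59.9 to 64.8 CPM in its knockdown against 719 to 744 CPM in MC38. Not every marker of that list was lower. Postn, the periostin gene, was at 34.4 and 35.8 CPM in the B16 knockdown against 0.145 and 0.603 CPM in MC38, whereas Col3a1 was at 0.916 and 1.04 CPM in B16 and at 306 and 317 CPM in MC38. The part of these markers in the result was not tested. Each line is 1 cell line, so line and tissue of origin cannot be told apart.

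With c30 in MC38, Mmp2, Mmp14 and Timp3 were lower than in the knockdown alone, and no member was higher. These were 3 of 8 tested genes. Among all 15031 genes tested, 7.75% were called, 4.45% as lower and 3.3% as higher. Mmp14 was 1.28-fold lower (log2 fold change -0.35, SE 0.057, edgeR adjusted p = 4.95e-06). Mmp2 was 1.18-fold lower (log2 fold change -0.24, SE 0.044, edgeR adjusted p = 2.96e-05). Timp3 was 1.17-fold lower (log2 fold change -0.22, SE 0.051, edgeR adjusted p = 0.00178). In each case both c30 libraries were below both knockdown libraries, and such a separation, in either direction, was seen in 5 of the 8 members and in 47.8% of genes tested. Without c30 replicate 2, the MC38 library with the most Dct and Tyrp1 RNA, Mmp2 and Mmp14 were called and Timp3 was not (log2 fold change -0.19). With all 10 libraries in 1 fit, Mmp2 (edgeR adjusted p = 0.0793) and Timp3 (edgeR adjusted p = 0.0953) missed the threshold.

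The other 5 tested genes were not called. Adam17, at a log2 fold change of 0.16 (SE 0.060, edgeR adjusted p = 0.0786), and Timp2, at -0.11 (SE 0.040, edgeR adjusted p = 0.0684), were nearest to the threshold, and in both the groups did not overlap. Timp2 was called in 1 of 10 alternatives, the one without knockdown replicate 1 (log2 fold change -0.17). Without knockdown replicate 2 its log2 fold change was -0.06. Adam10 (log2 fold change 0.00, SE 0.058) and Timp1 (0.02, SE 0.061) lay within their standard errors. Mmp9 had a log2 fold change of 1.38 with an SE of 0.70 (edgeR adjusted p = 0.262), and among the alternatives it was called when knockdown replicate 2, the library with 12 counts against 1, was left out (log2 fold change 3.96, edgeR adjusted p = 0.0336).

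In the libraries labelled ect, the lower members were again Mmp2, Mmp14 and Timp3. The ect and c30 comparisons share the knockdown libraries, so this is not independent evidence. Mmp14 was 1.35-fold lower (log2 fold change -0.44, SE 0.057, edgeR adjusted p = 1.32e-08). Mmp2 was 1.33-fold lower (log2 fold change -0.41, SE 0.044, edgeR adjusted p = 8.97e-12). Timp3 was 1.12-fold lower (log2 fold change -0.17, SE 0.051, edgeR adjusted p = 0.0213). Of all genes tested, 8.16% were called, 4.61% as lower and 3.55% as higher, against 3 of 8 members, and the groups did not overlap in 48.4% of genes and in 5 of the 8. Mmp2 and Mmp14 were called in all 10 alternatives tried. Timp3 was not called by DESeq2 (adjusted p = 0.0707), and its edgeR adjusted p was 0.197 without knockdown replicate 2, 0.0652 without ect replicate 1, 0.169 without ect replicate 2 and 0.241 with all 10 libraries in 1 fit. Adam10, Adam17, Timp1, Timp2 and Mmp9 were not called. Their log2 fold changes were 0.01, 0.08, 0.02, -0.05 and 1.27, and that of Mmp9 had an SE of 0.69. Without knockdown replicate 2, Mmp9 was called here too (log2 fold change 3.84, edgeR adjusted p = 0.0388).

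Summed levels of 3 of the 5 marker lists were highest in the MC38 knockdown, as were these 3 genes. That of fibroblasts and mesenchyme was 719 to 744 CPM in the MC38 knockdown, 468 to 471 CPM with c30 and 475 to 477 CPM in ect, with 6 of 10 markers at 1 CPM or more in every library. The collagen genes Col3a1 (306 and 317 CPM in the knockdown, 184 to 190 CPM in the other 4) and Col1a2 (251 and 255 CPM, then 152 to 176 CPM) held most of the sum. The markers Fap, Thy1, Postn and Lum of that list were at 0 to 0.696 CPM in MC38. The melanocyte list, which is nearly all Gpnmb in MC38, summed to 396 to 420 CPM in the knockdown, 332 to 336 CPM with c30 and 293 to 295 CPM in ect. Its gene Dct ran the other way, at 0 CPM in the knockdown and at 0.352 and 2.44 CPM with c30. Markers of colon and other epithelium summed to 20.7 to 22.6 CPM, 15.9 to 19.4 CPM and 14.0 to 15.6 CPM in the knockdown, with c30 and in ect. That order was the order of Cdh1, at 13.7 and 13.9 CPM, 9.25 and 7.31 CPM, and 5.53 and 6.85 CPM. Of the others that reached 1 CPM in MC38, Lgals4 and Muc2 overlapped across the groups. Krt8 was at 1.16 and 1.28 CPM in the knockdown, 1.94 and 1.48 CPM with c30 and 1.49 and 0.997 CPM in ect. Leukocyte sums of the knockdown overlapped those with c30 and in ect, and endothelial sums were highest in ect. In bulk RNA, fewer cells of a type and less RNA per cell cannot be told apart, and the part of these markers in the result was not tested.

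**Figure D3:**
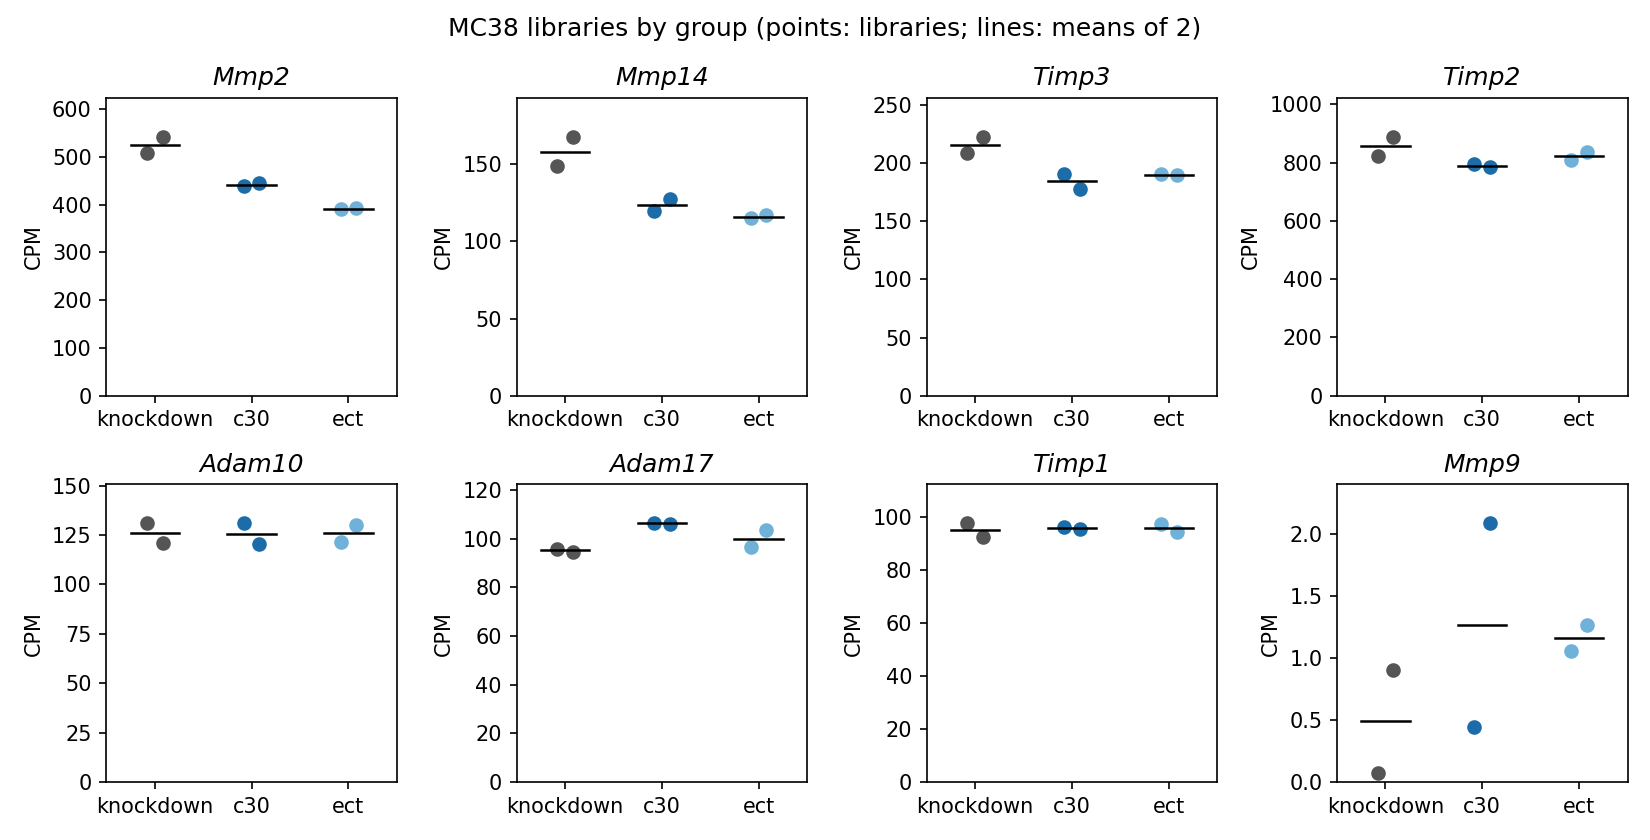
CPM of the library total in the 6 MC38 libraries by group, 1 panel per gene; points are libraries, lines are the means of 2, and each axis starts at 0. Mmp2 falls from 507 and 542 CPM in the knockdown to 391 and 393 CPM in ect, Mmp14 and Timp3 are highest in the knockdown, and Adam10 and Timp1 overlap across groups.

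The c30 and ect groups were also compared directly. None of the 8 tested genes was called, in a comparison in which 45 of 15031 genes, or 0.299%, were called. By edgeR, 1310 genes were at an unadjusted p under 0.05, and DESeq2 called 19. Mmp2 came nearest and was 1.12-fold higher with c30 (log2 difference 0.17, SE 0.044, edgeR adjusted p = 0.0700), with both c30 libraries above both ect libraries. The groups did not overlap for 4 of the 8 genes and for 37.9% of all genes. Mmp14 differed by 0.08 (SE 0.059, edgeR adjusted p = 0.728) and Timp3 by -0.05 (SE 0.052, edgeR adjusted p = 0.845). A p above the threshold does not show that the mutants act alike.

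In B16, wild-type Sdc1 changed no member at an edgeR adjusted p under 0.05, and 0% of 14336 genes were called. At an unadjusted p under 0.05 there were 791 genes, DESeq2 called 11 and limma-voom 0. The groups did not overlap for 5 of 7 members and for 35.1% of genes. Mmp2 had a log2 fold change of -0.56 (SE 0.34), at levels of a few CPM. Mmp14 had a log2 fold change of -0.09 (SE 0.087, edgeR adjusted p = 0.943), with wild-type replicate 1 at 279 CPM beside the knockdown libraries and replicate 2 lower at 244 CPM. Adam10, Adam17, Timp1, Timp2 and Timp3 had log2 fold changes of 0.06, 0.09, 0.21, -0.02 and -0.08. For Mmp14, the result rests on which wild-type library is used: without wild-type replicate 1 the log2 fold change was -0.19 (edgeR adjusted p = 0.0267), and that fit called 1295 genes. Without wild-type replicate 2 the fit called 326 genes and none of these members. Mmp9, Mmp3 and Mmp13 had too few counts for a test here.

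**Figure D4:**
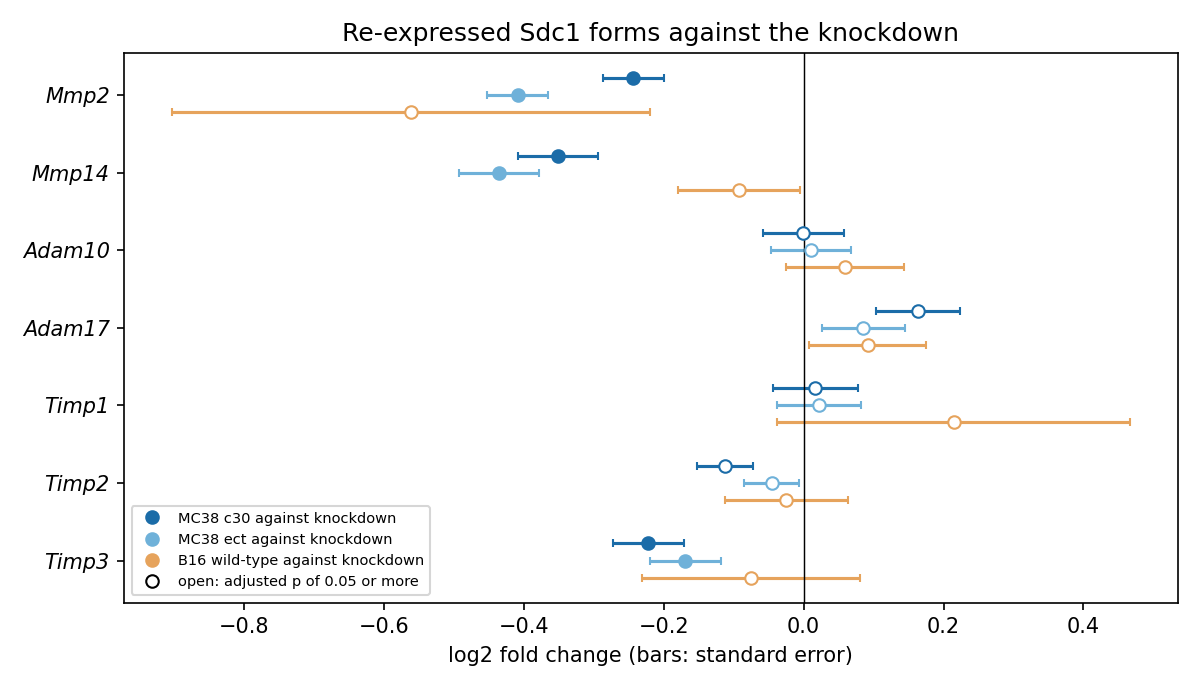
Log2 fold change of each gene against the knockdown of its own line, with its standard error as a bar; filled points have an edgeR adjusted p under 0.05, open points do not, and Mmp3, Mmp9 and Mmp13 are not drawn. Mmp2, Mmp14 and Timp3 lie below 0 and are filled for c30 and ect in MC38, and all B16 points are open.

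Whether a form of Sdc1 had a different effect in B16 than in MC38 was tested as a difference of log2 fold changes in 1 fit of all 10 libraries. None of the 8 tested genes was called in either contrast, where 0.284% of genes were called against c30 and 0.486% against ect. By edgeR, 1748 and 1812 genes were at an unadjusted p under 0.05, and DESeq2 called 77 and 101. For Mmp14 the B16 effect was 0.26 above that of c30 (SE 0.10, edgeR adjusted p = 0.379) and 0.34 above that of ect (SE 0.10, edgeR adjusted p = 0.175). Those differences were 0.36 and 0.44 without B16 wild-type replicate 2, and 0.16 and 0.24 without wild-type replicate 1. Each was called in 1 of 13 alternatives, the one without wild-type replicate 2, so the result rests on which wild-type library is used. For Mmp2 the differences were -0.32 (SE 0.23) and -0.16 (SE 0.23), and for Timp3 0.14 and 0.09 (SE 0.13 for both). Line and form of Sdc1 differ together and cannot be told apart.

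The rest of the protease system was described with 7 lists of genes. Of all genes tested, 7.75% were called with c30, 8.16% in ect and 68.2% between the knockdown lines. Of 18 other MMP genes, 5 passed the filter in MC38 and none was called with c30 or in ect. Between the knockdown lines 6 were tested, 3 were lower in B16 and 2 higher, beside 34.3% and 33.8% of all genes tested. Mmp11, the stromelysin-3 gene, was at 37.7 and 41.7 CPM in the MC38 knockdown and 2.98 and 2.61 CPM in the B16 knockdown. Mmp28, the epilysin gene, was at 9.87 and 9.50 CPM against 0.0764 and 0.0870 CPM. Mmp15, which encodes another membrane-type MMP, was at 0 and 0.377 CPM in MC38 and 2.90 and 4.44 CPM in B16. Mmp7 and Mmp12 had 0 counts in every library.

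Among 10 other ADAM genes, the meltrin beta gene Adam19 rose with c30 (0.55 on the log2 scale, SE 0.12, edgeR adjusted p = 0.000974) and in ect (0.37, SE 0.12, edgeR adjusted p = 0.0399), and none of the other 4 tested was called. With c30 the Adam19 call was lost under 2 of 10 alternatives, including the omission of c30 replicate 2 (log2 fold change 0.33). In ect the call was lost under 8 of 10 alternatives. Adam19 was at 17.9 and 19.3 CPM in the knockdown, 23.5 and 30.7 CPM with c30 and 23.5 and 24.1 CPM in ect. Between lines, 5 of 9 were higher in B16 and 4 lower, beside 33.8% and 34.3% of all genes tested. Adam9 was at 236 and 232 CPM in the MC38 knockdown and 399 and 408 CPM in the B16 knockdown, and Adam15 at 73.9 and 77.0 CPM against 23.9 and 31.6 CPM. Adam23, whose product lacks a working protease site, had 0 counts in the 6 MC38 libraries and was at 12.8 to 22.4 CPM in B16.

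Of 23 ADAMTS, meprin and related genes, 12 were tested with c30, where Adamts9 rose (0.84 on the log2 scale, SE 0.25, edgeR adjusted p = 0.0240), and none was called in ect. The Adamts9 call was lost under 5 of the 9 alternatives that gave a value. Between lines, 6 of 14 were higher in B16 and 6 lower, beside 33.8% and 34.3% of all genes tested. Adamts1, the gene of an aggrecan- and versican-cutting protease, was 16.6-fold higher in B16, at 463 and 460 CPM against 28.7 and 28.4 CPM. Adamts4, an aggrecanase gene, was 21.1-fold higher, at 72.7 and 76.3 CPM against 3.27 and 3.99 CPM. Adamts20 was at 32.4 to 34.9 CPM in B16 and at 0 to 0.145 CPM in MC38.

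Genes of ADAM10 and ADAM17 partners include the tetraspanins that carry ADAM10 to the membrane and the iRhoms that carry ADAM17. With c30, 2 of 9 tested fell and none rose: Tspan15 (-0.41 on the log2 scale, SE 0.095, edgeR adjusted p = 0.00158) and Pacs2, the gene of a sorting protein that binds ADAM17 (-0.27, SE 0.064, edgeR adjusted p = 0.00231). Pacs2 was the gene of this list called in ect (-0.21, SE 0.063, edgeR adjusted p = 0.0202). With c30 each call was lost under 2 of 10 alternatives, and that of Pacs2 in ect under 5 of 10. Between lines, 5 of 10 were higher in B16 and 3 lower, beside 33.8% and 34.3% of all genes tested. Tspan10 was at 86.1 and 91.2 CPM in the B16 knockdown against 0 counts in the MC38 knockdown. Tspan5 was 3.54-fold lower in B16, at 14.7 and 19.1 CPM against 66.3 and 56.1 CPM, and Tspan15 was 3.41-fold lower, at 13.7 and 11.8 CPM against 44.5 and 45.7 CPM.

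Among 10 other inhibitors and regulators of MMPs, 5 were tested in MC38 and Reck, the gene of a membrane-anchored MMP inhibitor, fell with c30 (log2 fold change -0.53, SE 0.17, edgeR adjusted p = 0.0392), a call lost under 6 of 10 alternatives. None was called in ect. Between lines, 2 of 5 were higher in B16 and 3 lower, beside 33.8% and 34.3% of all genes tested. Bsg, the gene of basigin, an inducer of MMPs, was 1.66-fold higher in B16, at 592 and 621 CPM against 373 and 377 CPM. Of the procollagen C-proteinase enhancers, Pcolce2 was at 57.1 and 57.1 CPM in the MC38 knockdown and 0.458 and 0.174 CPM in the B16 knockdown.

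Of 15 activating proteases and genes of the plasminogen system, 7 were tested in MC38. Plaur, the urokinase receptor gene, rose with c30 (0.45 on the log2 scale, SE 0.073, edgeR adjusted p = 2.95e-06) and in ect (0.40, SE 0.072, edgeR adjusted p = 2.84e-05). It was at 53.1 and 53.6 CPM in the knockdown and at 68.3 to 73.8 CPM in the other 4 libraries. Hpse, the gene of heparanase, which cuts heparan sulphate chains such as those of syndecan-1, fell with c30 (-0.88, SE 0.20, edgeR adjusted p = 0.00131) and in ect (-0.66, SE 0.19, edgeR adjusted p = 0.0155), where the call was lost under 4 of the 9 alternatives that gave a value. Its level was 10.2 and 10.6 CPM in the knockdown and 5.31 to 7.03 CPM in the others. Furin, the gene of a convertase that removes the prodomain of MT1-MMP and of ADAMs, was not called in either comparison (0.13 and 0.02). Between lines, 3 of 8 were higher in B16 and 5 lower, beside 33.8% and 34.3% of all genes tested.

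Among 32 genes of shed membrane proteins, 29 were tested in MC38. With c30, 3 rose, 1 of them Sdc1 itself, and 4 fell, where 7.75% of all genes tested were called. In ect, 1 rose and 5 fell, where 8.16% of all genes tested were called. Hbegf, a growth factor gene, was the gene that rose in ect (0.59 on the log2 scale, SE 0.094, edgeR adjusted p = 2.21e-06) and also rose with c30 (0.41, SE 0.096, edgeR adjusted p = 0.00195). The c30 call of Hbegf was lost under 2 of 10 alternatives, without c30 replicate 2 (adjusted p = 0.0630 by edgeR) and with all 10 libraries in 1 fit (0.129). Vcam1, an adhesion molecule gene, fell with c30 (-0.56, SE 0.076, edgeR adjusted p = 4.75e-08) and in ect (-0.37, SE 0.074, edgeR adjusted p = 0.000239), where the call was lost under 1 of 10 alternatives, all 10 libraries in 1 fit (adjusted p = 0.0688 by edgeR). Cdh1, the E-cadherin gene, fell with c30 (-0.73, SE 0.17, edgeR adjusted p = 0.00231), to 9.25 and 7.31 CPM, and in ect (-1.13, SE 0.18, edgeR adjusted p = 1.35e-06), from 13.7 and 13.9 CPM to 5.53 and 6.85 CPM. The c30 call of Cdh1 was not followed through the alternatives. Between c30 and ect, Sdc1 and L1cam (log2 difference 0.35, SE 0.061, edgeR adjusted p = 0.000298) were higher with c30. The L1cam call was lost under 2 of 10 alternatives, without c30 replicate 1 (adjusted p = 0.224 by edgeR) and with all 10 libraries in 1 fit. Between lines, 8 of 29 were higher in B16 and 17 lower, beside 33.8% and 34.3% of all genes tested. Axl was at 997 and 1041 CPM in the MC38 knockdown and 48.4 and 52.7 CPM in the B16 knockdown. Lrp1 was at 1014 and 1188 CPM against 62.2 and 70.1 CPM. In B16 with wild-type Sdc1, no gene of any of the 7 lists was called. The medians of the lists with c30 ran from -0.38 for other MMPs to 0.13 for activating proteases on the log2 scale, beside 0.00 over all genes tested.

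Genes with the most similar profiles over the 10 libraries were found by the root mean square difference of centred log2 CPM, among genes with a mean of at least 5 CPM. With 6 libraries of one line and 4 of another, the likeness reflects mainly the line. For Mmp14 the nearest was Gpc1, a glypican gene, at 0.084, and then Grina at 0.085. For Timp2 they were Ltbp3, a latent TGF-beta binding protein gene, at 0.049 and Uaca at 0.064. For Mmp2 they were Fbxl16 and Radil at 0.18 and 0.22, for Timp1 Mfhas1 and Hspa4l at 0.10 and 0.14, and for Timp3 Dap and Cd300lb at 0.11 and 0.11. Adam10 was nearest to Bzw2 and Elf2 at 0.037 and 0.042, and Adam17 to Ahcyl1 and Ccdc127 at 0.035 and 0.036. The distance for Mmp9 was 0.77 to Zbed5 and 0.78 to Esr1, at levels near the limit of detection.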

How the data were processed

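RNA was measured in 10 libraries of cultured mouse cells. The authors deposited a table of raw counts per gene and library. Per the submitters' processing notes, Trimmomatic, HISAT2 2.0.5, HTSeq, featureCounts and DESeq2 were used with build GRCm39. The sources used here do not give their order, the annotation, the strand setting or the handling of multiply mapped reads, so reads of overlapping or near-identical genes could be lost or split.

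Tests used edgeR 4.0.16 (R 4.3.3) with filterByExpr, TMM factors and robust quasi-likelihood fits, 2-sided. Benjamini-Hochberg adjustment ran over all genes tested, and calls were made under 0.05. The MC38 comparisons shared a fit of 6 libraries, the B16 comparison used 4, and comparisons of lines used 10, with a biological coefficient of variation of 4.84%, 8.68% and 6.65%. A standard error is the absolute log2 fold change over the square root of F.

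The 10 genes and the lists were chosen with earlier results of these data known. From each list, at most 3 called genes per comparison were named, those with the smallest p and a group mean of at least 1 CPM. Sdc1 was named as the check of the labels, and Mmp7, Mmp12, Timp4 and Furin were named after their values were seen. Cdh1 with c30 was given outside this rule, beside its result in ect. Likeness took 2 genes per member. Besides the marker lists in the text, endothelial markers summed to at most 6.68 CPM and leukocyte markers to 10.1 to 23.7 CPM.

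Alternatives were RLE size factors, no filter, DESeq2 1.42.0, limma-voom (limma 3.58.1), a replicate block, omission of each library, all 10 libraries in 1 fit, only the 4 knockdown libraries and, chosen after seeing the data, a crossed block in B16. Promoters are from RefSeq. Protein sequences were not used here. Figures were drawn with matplotlib 3.10.9. The values of 1 gene of these lists are not reported here.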

Additional observations from a re-analysis of the deposited data

Results flagged for a closer look

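The difference between the B16 libraries with wild-type Sdc1 and their knockdown differed from that between the MC38 libraries labelled c30 or ect and theirs for 5 genes of the lists, Sdc1 itself included, by an edgeR test of the difference over all 10 libraries. Each value is the log2 effect in B16 minus that in MC38, where line and form of Sdc1 cannot be told apart and where the libraries labelled ect showed no added Sdc1. Plaur, the urokinase receptor gene, differed by -0.8216 against c30 (adjusted p = 0.0148) and by -0.7721 against ect (adjusted p = 0.0183). It rose in MC38, whereas in B16 it was at 21.8 and 24.2 CPM in the knockdown and at 19.8 and 15.1 CPM with wild-type Sdc1. Bmp1, the gene of a procollagen C-proteinase, differed by -0.5292 against c30 (adjusted p = 0.0377), with 73.5 and 71.8 CPM in the B16 knockdown and 55.9 and 46.7 CPM with wild-type Sdc1. Adamts14, a procollagen N-proteinase gene, differed by -0.6457 against c30 (adjusted p = 0.0454), with 37.1 and 40.7 CPM in the B16 knockdown and 26.3 and 26.7 CPM with wild-type Sdc1. Sdc1 itself differed by -1.22 against c30 (adjusted p = 0.000143) and by 0.8147 against ect (adjusted p = 0.0161). Cdh1 differed by 2.894 against ect (adjusted p = 0.0339), at 0.0870 to 0.871 CPM in B16.

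The Sdc1 difference against c30 was called in all 13 alternatives tried. The others were lost in 6 to 9 of 13: the Plaur differences in 6 each, Sdc1 against ect in 6, Cdh1 in 7, Bmp1 in 8 and Adamts14 in 9. The largest adjusted p over the alternatives was 0.125 and 0.152 for Plaur, 0.317 for Bmp1, 0.291 for Adamts14, 0.193 for Sdc1 against ect and 0.256 for Cdh1.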

How the results depend on the processing

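The replicate number was entered as a block. Between groups, same-numbered libraries correlated at -0.105 to 0.0424 in their deviations, so the numbers do not pair the libraries, and the block changed no call of the 10 genes. In B16 it gave 15 called genes, and a crossed block, chosen after seeing the data, gave 5.

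Directions and calls of Mmp14 with c30 and of Mmp2 and Mmp14 in ect held in all 10 alternatives, as did the 7 calls between lines. Counts of called genes moved most. DESeq2 gave 513 (c30), 600 (ect), 19 (c30 against ect), 11 (B16) and 77 (B16 minus c30). All 10 libraries in 1 fit gave 254, 249, 8 and 27 in the first 4 comparisons and left 1 of the 10 genes called with c30 (Mmp14). Without the filter there were 42 in B16, 159 for B16 minus c30 and 189 for B16 minus ect, and limma-voom gave 13 and 23 for the last 2. Of the genes called between c30 and ect, 44.4% were higher with c30 by edgeR and 63.2% by DESeq2. Of those called between c30 and the knockdown, 42.6% were higher with c30, and 25.2% with all 10 libraries in 1 fit. The cause was not tested.

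Leaving out 1 library left a lone library, assumed to vary like the others. The counts of called genes then ranged from 464 to 992 (c30), 776 to 984 (ect), 18 to 44 (c30 against ect), 3 to 1295 (B16), 13 to 1096 (B16 minus c30) and 13 to 1170 (B16 minus ect). The number of the 10 genes called ranged from 2 to 4 (c30), 2 to 3 (ect) and 0 to 1 (B16 and both differences). The log2 fold changes that changed sign ranged, with c30, from -0.14 to 3.96 for Mmp9, from -0.060 to 0.056 for Adam10 and from -0.027 to 0.056 for Timp1. In ect they ranged from -0.049 to 0.067 for Adam10, -0.024 to 0.060 for Timp1 and -0.10 to 0.0044 for Timp2. In B16 they ranged from -0.015 to 0.13 for Adam10 and -0.11 to 0.060 for Timp2, and between lines from -5.61 to 0.19 for Mmp9. For Mmp2 they ranged from -0.77 to 0.025 for B16 minus c30 and -0.61 to 0.19 for B16 minus ect. In both differences and in c30 against ect, only the log2 fold changes of Mmp2, Mmp14 and Timp3 were followed through the alternatives. Sign changes of the other members there were not looked at. Between lines, Mmp9 was called without MC38 knockdown replicate 1 (log2 fold change -3.29, edgeR adjusted p = 0.0222). Depth limits Mmp3 and Mmp13, and Mmp9 had few counts and replicates that differed.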
